A study of Homo sapiens with 12 samples.

Results

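The PAX genes, PAX1 to PAX9, encode the 9 human transcription factors that carry a paired domain. They were chosen by symbol among 19974 protein-coding genes of the 22 autosomes and X, and all 9 were found in RefSeq's table for GRCh38.p14, whose primary sequence is that of hg38. The data are 2 lists of lamina-associated domains (LADs), where chromosomal DNA touches the nuclear lamina, from the H9 human embryonic stem cell line. One list is for primed cells, grown in mTeSR, and the other for naive cells, grown in RSeT, and the series compared lamina contact between them. The cells received no treatment, and H9 is a single line, so both states share its genome. Contact was mapped by pA-DamID, in which an antibody against lamin B1 (LMNB1) brings a protein A and Dam methylase fusion to the lamina, where Dam methylates the adenine of nearby GATC sites. The labels list 12 libraries, 3 with the LMNB1 antibody and 3 with untethered Dam (Dam-only) in each state. There is 1 LAD list per state, and the labels do not say how the libraries entered it.

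LADs are runs of 10 kb windows in both lists, with no score, read number or depth attached. The naive list held 9178 LADs and the primed list 5671. A window with few GATC sites or few mappable reads cannot be told apart from a window away from the lamina, and a difference between the states has no replicate check, so no p-value is given for one. For each PAX gene the covered share of the gene body, the distance from the gene body to the nearest LAD and the LAD share of the 1 Mb centred on the gene were read from both lists. Coordinates are 1-based and of hg38.

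PAX proteins bind DNA through the paired domain and control the formation of organs and tissues in the embryo. They are grouped by structure. Subgroup I (PAX1 and PAX9) has no homeodomain, subgroup II (PAX2, PAX5 and PAX8) keeps part of one, subgroup III (PAX3 and PAX7) and subgroup IV (PAX4 and PAX6) have a whole one, and subgroup IV lacks the short octapeptide motif that the others share. Most PAX genes are silent in pluripotent stem cells and are switched on in particular lineages, from the neural tube, neural crest and eye to kidney, thyroid, muscle, B cells and pancreas. LADs are in general poor in genes and low in transcription.

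Most PAX gene bodies lay outside LADs, and so did those of most protein-coding genes. In naive cells 1 of 9, PAX3, had at least 50% of its body in LADs, where 18.9% of all protein-coding genes passed the same limit, and in primed cells 0 of 9 did, against 17.3% of all genes. PAX3 was therefore the single member placed in LADs of the naive state only, as were 3.44% of all genes, and 0 members were in LADs of the primed state only (1.89% of all genes). Any overlap at all was seen for PAX3 and PAX6 in naive cells (2 of 9, against 23.8% of all genes) and for 0 members in primed cells (20.8%). The median covered share was 0% in both states for the PAX genes and for all genes alike. With 9 genes these counts are descriptions, and none was tested.

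More members differed between the states in the LAD share of their surroundings than in the placement of the gene body, and so did more of all genes. The measures are unlike, since placement has a limit of 50% and any difference in the 1 Mb share was counted. The LAD share of the surrounding 1 Mb was higher in naive cells for 5 members, PAX1, PAX3, PAX6, PAX8 and PAX9, against 27.8% of all genes, and higher in primed cells for 0 members, against 17.8%. It was 10 or more percentage points higher in naive cells for 4 of them (12.2% of all genes) and by so much higher in primed cells for 0 (3.66%). Without LADs under 50 kb the count of 4 became 2, PAX3 and PAX6 (9.37% of all genes), since the differences of PAX9 and PAX1 then were 4 and 5 points. Around PAX2, PAX5 and PAX7 there was no LAD base in either state (49.7% of all genes), and around PAX4 the shares were equal and above 0 (4.79%). The median share over the 9 genes was 21.2% in naive and 3.0% in primed cells, where the median over all genes was 0% in both. The naive median is the value of PAX1, whose LADs there are short, and it was 5% without LADs under 50 kb and 0% without LADs under 100 kb, with 0% in primed cells both times. The 9 windows together held 1.54 Mb in LADs of both states, a further 1.54 Mb in those of naive cells alone and 0.1 Mb in those of primed cells alone. Naive-only DNA thus made up 48.4% of the DNA that either list called around the PAX genes and 12.8% of the DNA that either list called in all. These shares are of unlike regions, windows centred on genes and the whole lists. The share in windows around all protein-coding genes was not measured. Most of the naive-only DNA came from the windows of PAX3 (649 kb) and PAX6 (453 kb).

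**Figure D1:**
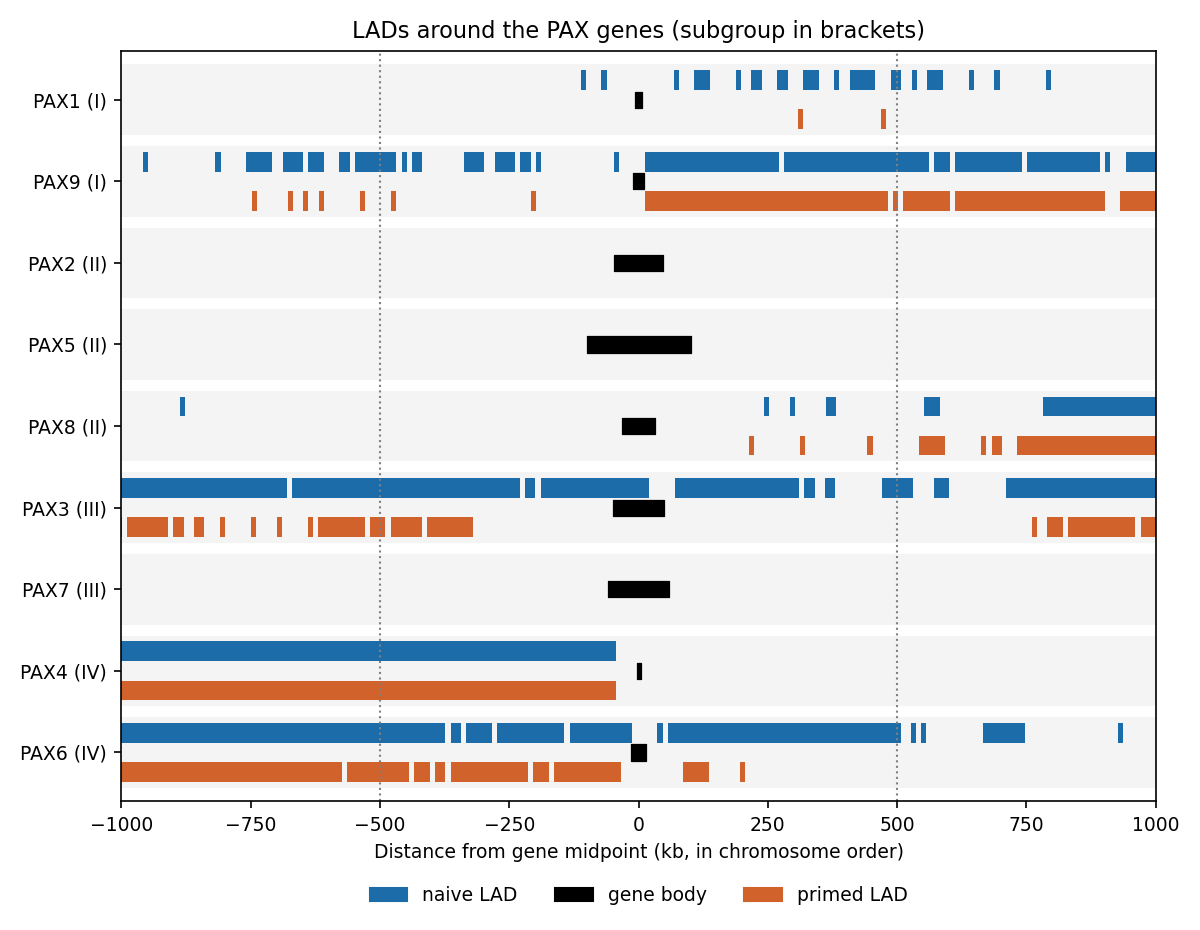
LADs of naive cells (blue, above) and primed cells (orange, below) from 1 Mb below to 1 Mb above the midpoint of each PAX gene, in chromosome order, with the gene body in black and dotted lines at 500 kb on each side. The strips of PAX2, PAX5 and PAX7 hold no LAD. PAX4 and PAX9 stand beside a LAD edge at the same place in both states. The start sites of PAX3 and PAX6 lie between LADs that reach closer in naive cells, where the far ends of both genes overlap a LAD.

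**Figure D2:**
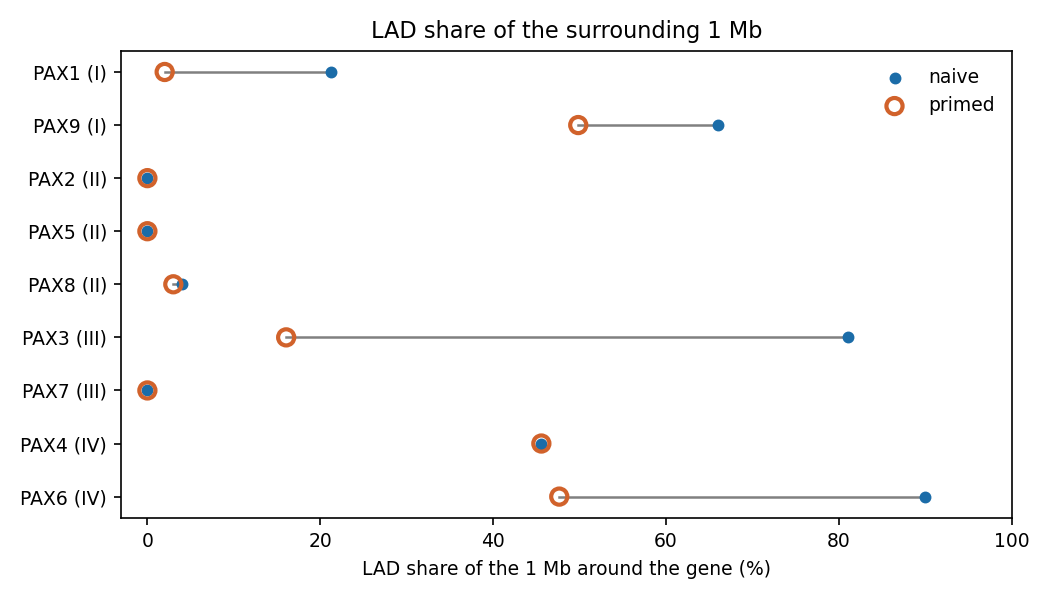
LAD share of the 1 Mb centred on each PAX gene (horizontal axis, percent) in naive cells (filled blue) and primed cells (open orange), 1 value per state, genes ordered by subgroup. PAX3 shows the largest difference, from 16.1% in primed to 81% in naive cells, and PAX2, PAX4, PAX5 and PAX7 show the same value in both states.

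In naive cells PAX3 and PAX7 of subgroup III lay at opposite ends of the order of distances to a LAD. PAX3 marks and directs the dorsal neural tube, the neural crest and the precursors of limb muscle. Its body (chr2:222199887-222298998, minus strand, 99.1 kb) was 70.7% covered in naive cells and 0% covered in primed cells. The covered 70.1 kb were the far end of the transcript, inside a naive LAD of 210 kb (chr2:222060001-222270000). The remaining 29.0 kb, with the start site, fell in a LAD-free interval of 50 kb (chr2:222270001-222320000), bounded above by a further naive LAD of 240 kb (chr2:222320001-222560000). The start site was 21.0 kb from the nearest naive LAD.

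In primed cells the same start site stood in a LAD-free interval of 1.08 Mb (chr2:221930001-223010000), and the gene body was 269.9 kb from the nearest LAD. The 1 Mb around PAX3 was in LADs at 81% in naive and 16.1% in primed cells, a difference of 64.9 points. Of this window 161 kb were in LADs of both states, 649 kb in naive LADs only and 0 kb in primed LADs only. On the lower side, beyond the 3' end of the gene, 96% of the adjoining 500 kb was in naive and 40.0% in primed LADs. On the upper side, beyond the start, the shares were 68% and 0%. The naive window held 7 LADs of up to 440 kb, and the primed window 3 LADs of up to 90 kb.

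The neighbours of PAX3 differed between the lists to varying degrees. SGPP2, which encodes a sphingosine-1-phosphate phosphatase (chr2:222423988-222562621), was 98.1% covered in naive cells and 0% covered in primed cells and was the only one of the 4 other protein-coding genes of the window whose placement differed. RNF228, the nearest coding gene above, 15.1 kb away, was covered at 2.58% and 0%. EPHA4, an ephrin receptor gene and the nearest coding gene below, lay 626 kb away and was covered at 97.3% and 19.2%. The non-coding gene CCDC140, which overlaps the PAX3 start, was at 0% in both states, whereas LOC107985991, inside the body of PAX3, was at 100% and 0%. These non-coding neighbours were singled out after their values were seen. The 3 protein-coding genes whose 4 values (covered share and 1 Mb share in both states) were nearest to those of PAX3 were RUNX2, a bone regulator on chromosome 6, the casein kinase gene CSNK1G3 on chromosome 5 and PALM2AKAP2 on chromosome 9, at Euclidean distances of 8.76, 8.77 and 9.67 points. RUNX2 was 77.6% covered in naive cells and 4.49% covered in primed cells, with 82% and 13.0% of its 1 Mb in LADs.

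PAX7, the paralogue that marks muscle satellite cells, had no LAD near it in either state. Its body (chr1:18630846-18748866, plus strand, 118 kb) was covered at 0% in both. The nearest LAD lay 2.03 Mb away in naive cells, a single window (chr1:16590001-16600000), and 18.0 Mb away in primed cells, again a single window (chr1:630001-640000). Only 1.58% of all protein-coding genes were farther from a LAD than PAX7 in primed cells, and 29.3% were farther in naive cells. The LAD-free interval that held the gene was 31.6 Mb in naive and 47.5 Mb in primed cells. Both distances thus rest on isolated 10 kb calls. Without LADs under 50 kb the distances were 29.8 Mb in naive and 29.5 Mb in primed cells, so the difference between the states was lost and its direction turned.

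PAX6 and PAX4 of subgroup IV both lay beside LADs in both states. PAX6 is the master regulator of eye formation and also acts in forebrain and endocrine pancreas. Its body (chr11:31789026-31817961, minus strand, 28.9 kb) was 3.37% covered in naive cells and 0% covered in primed cells. The 0.975 kb in a naive LAD were the last bases of the transcript, at the end of a LAD of 120 kb (chr11:31670001-31790000). The rest stood in a naive LAD-free interval of 50 kb (chr11:31790001-31840000), closed above by a single 10 kb LAD (chr11:31840001-31850000). In primed cells the interval was 120 kb (chr11:31770001-31890000), and the gene body was 19.0 kb from the nearest LAD.

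The 1 Mb around PAX6 was the most lamina-associated of the 9 in naive cells, at 90%, and stood at 47.7% in primed cells, a difference of 42.3 points. The difference lay on the upper side. The 500 kb below the gene were in LADs at 92% in naive and 86.2% in primed cells, and the 500 kb above at 92% and 12%. ELP4, an Elongator subunit gene whose end overlaps that of PAX6, was covered at 92.8% and 85.6%, and RCN1, a calcium-binding protein gene 273 kb above PAX6, at 100% and 0%. RCN1 was the 1 gene of the 4 others in the window whose placement differed between the states. The antisense gene PAX6-AS1, which starts within PAX6 and runs upward, was 52.6% covered in naive cells and 0% covered in primed cells, while the non-coding gene PAUPAR, 8.61 kb above PAX6, was at 0% in both. Both were singled out after their values were seen. The 9 RefSeq start sites of PAX6 all lay outside LADs, 10.7 to 22.7 kb from the nearest edge in naive and 30.7 to 48.0 kb in primed cells.

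PAX4, needed for insulin-producing beta cells, had the same values in both states. Its body (chr7:127610292-127618142, minus strand, 7.85 kb) was at 0% coverage, 40.3 kb from the nearest LAD. That LAD ended at the same base in both lists (chr7:126130001-127570000 in naive, chr7:122540001-127570000 in primed), although it was 1.44 Mb long in naive and 5.03 Mb long in primed cells. The surrounding 1 Mb was in LADs at 45.6% in both states, all of it on the lower side (91.9% of the adjoining 500 kb, against 0% on the upper side). The LAD-free interval above the edge ran for 5.92 Mb in naive and 6.05 Mb in primed cells. FSCN3, an actin-bundling protein gene 8.15 kb below PAX4, and SND1, 34.1 kb above it, were both at 0% in both states.

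**Figure D3:**
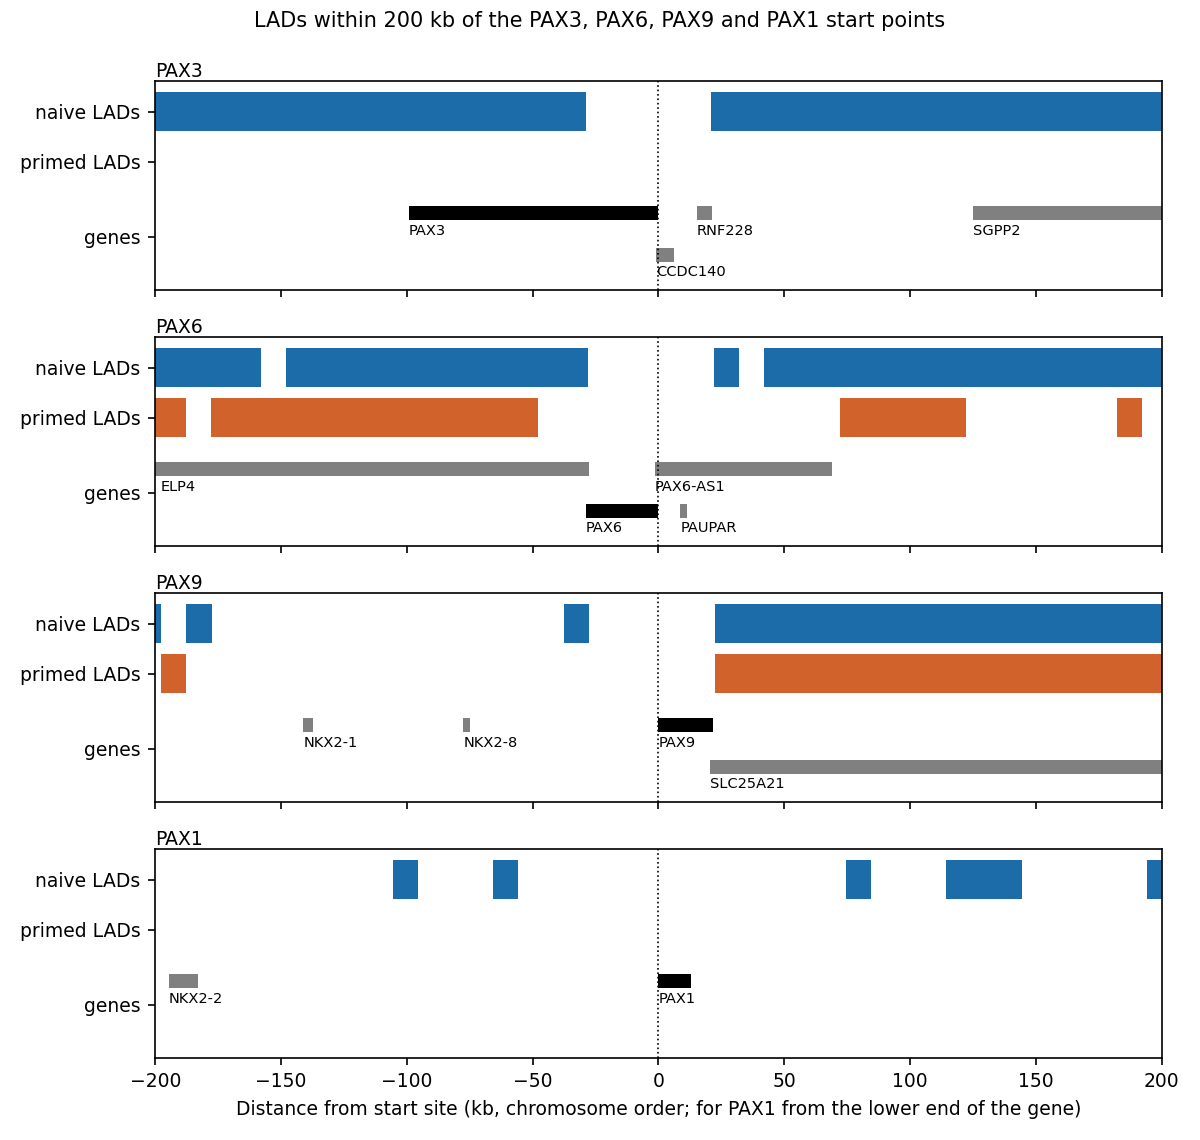
Naive LADs (blue), primed LADs (orange) and genes (black for the PAX gene, grey for protein-coding neighbours and 3 non-coding genes) within 200 kb of the start sites of PAX3, PAX6 and PAX9 and of the lower end of PAX1, in chromosome order. The start sites of PAX3, PAX6 and PAX9 each stand in a naive LAD-free interval of 50 kb, and the primed intervals are wider, at 1.08 Mb, 120 kb and 210 kb.

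Around PAX9 and PAX1 of subgroup I, naive LADs came closer to the gene than primed LADs on at least 1 side. PAX9 acts in pharyngeal pouches, teeth and the vertebral column. Its body (chr14:36657568-36679362, plus strand, 21.8 kb) was at 0% coverage but ended 0.638 kb from a LAD in both states. This LAD began at the same base in both lists and was 260 kb long in naive (chr14:36680001-36940000) and 470 kb long in primed cells (chr14:36680001-37150000). It covered SLC25A21, a mitochondrial carrier gene that overlaps the end of PAX9, at 97.6% in naive and 97.0% in primed cells. Below the start site the nearest LAD was a single 10 kb call in both states, 27.6 kb away in naive and 188 kb away in primed cells. The LAD-free interval thus spanned 50 kb in naive (chr14:36630001-36680000) and 210 kb in primed cells (chr14:36470001-36680000).

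The 1 Mb around PAX9 was in LADs at 66% in naive and 49.8% in primed cells, a difference of 16.2 points that came from the lower side. There the adjoining 500 kb were covered at 38.5% and 4%, and on the upper side at 97.9% and 96%. The lower side holds NKX2-8 and NKX2-1, homeobox genes of the foregut and lung, and both were at 0% in both states. NKX2-1 was named after its value was seen.

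PAX1, which acts in the ventral somite that forms vertebrae and in the thymus, lay among scattered short naive LADs. Its body (chr20:21705664-21718481, 12.8 kb) was at 0% in both states, with the nearest LAD 55.7 kb away in naive and 301.5 kb away in primed cells. The surrounding 1 Mb was 21.2% covered in naive cells and 2% covered in primed cells. The naive window held 11 LADs, of which 5 were single windows and the longest was 50 kb. The primed window held 2, both single windows, and 0 kb of the window was in LADs of both states. The LAD-free interval around the gene spanned 130 kb in naive (chr20:21650001-21780000) and 4.64 Mb in primed cells (chr20:17380001-22020000). The nearest coding genes, NKX2-2 at 183 kb and FOXA2 at 863 kb, which encode regulators of the ventral neural tube and of the endoderm, were at 0% in both. Without LADs under 100 kb the naive and primed shares of the PAX1 window were both 0%.

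In the lists as deposited, PAX2 and PAX5 of subgroup II lay farther from LADs than the median gene in both states, and PAX8 lay nearer than it. PAX2, a regulator of kidney and optic nerve (chr10:100735396-100829944, plus strand, 94.5 kb), was at 0% coverage and 1495 kb from the nearest LAD in naive and 1535 kb in primed cells. Those LADs were 10 kb long in naive and 30 kb long in primed cells. Without LADs under 50 kb PAX2 was at 1545 and 1575 kb, nearer than the medians of 1719 and 2266 kb over all genes. PAX5 then stayed farther than these medians, at 3883 and 3913 kb. PAX5, which commits cells to the B lineage (chr9:36833269-37034268, minus strand, 201 kb), was at 0% and 1556 and 1826 kb away. The LAD-free intervals that held them were 4.79 and 5.2 Mb for PAX2 and 5.64 and 5.94 Mb for PAX5, in naive and primed cells. The 1 Mb and 2 Mb windows of both genes held no LAD base in either state. Accordingly none of the coding genes in the 1 Mb, 16 around PAX2 and 3 around PAX5, was in LADs.

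PAX8, a regulator of the thyroid (chr2:113215997-113278921, minus strand, 62.9 kb), was at 0% in both states and was the only member nearer to a LAD in primed cells, by 30 kb, at 211 kb in naive and 181 kb in primed cells. Its 1 Mb was covered at 4% and 3%, by 3 LADs of at most 20 kb in each state, and 0 kb were in LADs of both. The order of the shares turned in a 2 Mb window, where the difference was -4 points, and when LADs less than 100 kb apart were joined, where it was -2.75 points. Of 17 other coding genes in the window, FOXD4L1 (53.7% and 0%) and LOC124908046 (100% and 0%) differed in placement. FOXD4L1 has near-identical copies elsewhere in the genome, and how multiply mapped reads were treated is not stated in the labels, so the calls in this stretch are uncertain.

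**Figure D4:**
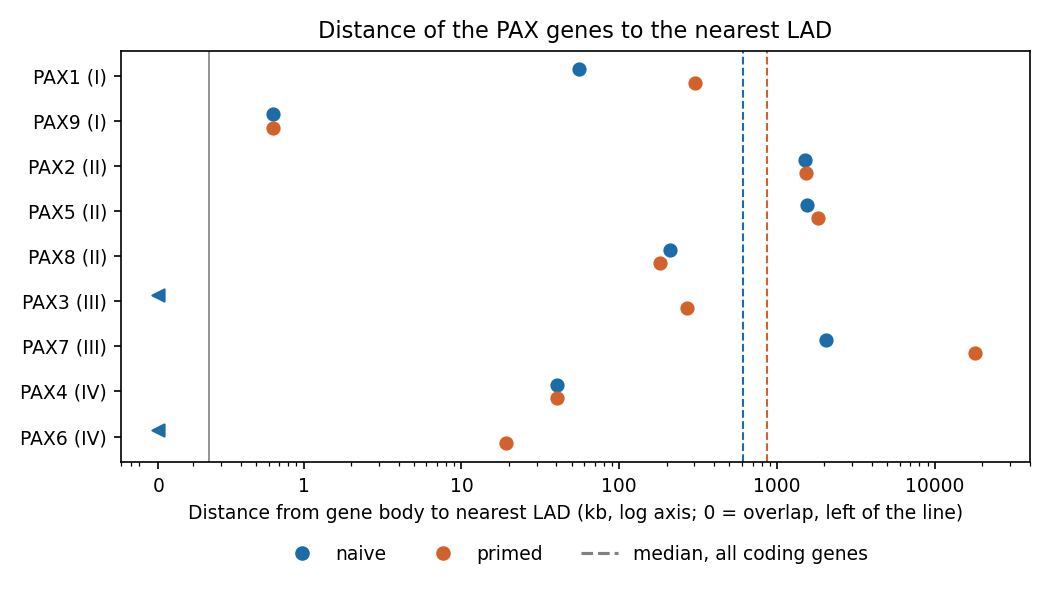
Distance from each PAX gene body to the nearest LAD (log axis, kb) in naive (blue) and primed cells (orange), with triangles left of the grey line for gene bodies that overlap a LAD. Dashed lines mark the median over all protein-coding genes, 609 kb in naive and 869 kb in primed cells, and PAX2, PAX5 and PAX7 are the members beyond them in both states. Without LADs under 50 kb PAX2 was nearer than the median gene in both states.

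In order of distance in naive cells the members ran from PAX3 and PAX6 (overlap), PAX9 (0.638 kb), PAX4 (40.3 kb) and PAX1 (55.7 kb) to PAX8 (211 kb), PAX2, PAX5 and PAX7 (2.03 Mb). In primed cells the order was PAX9 (0.638 kb), PAX6 (19.0 kb), PAX4 (40.3 kb), PAX8 (181 kb), PAX3 (269.9 kb), PAX1 (301.5 kb), PAX2, PAX5 and PAX7. These orders hold for the lists as deposited. Without LADs under 50 kb PAX3 (269.9 kb) stood before PAX8 (511 kb) in primed cells, and PAX1 (4726 kb) came after PAX5 (3913 kb). The distances have no replicate error, so neighbours in these orders cannot be ranked beyond the 10 kb window of the calls. The median distance over the members, 55.7 kb in naive cells, became 269.9 kb in primed cells, against 609 and 869 kb over all genes. The naive median is again the value of PAX1, measured to a single 10 kb call. Without LADs under 50 kb the medians were 401.5 and 511 kb, against 1719 and 2266 kb over all genes. Without LADs under 100 kb they were 751 and 781 kb, against 2146 and 2521 kb. Distances run from the gene body, and the PAX genes were longer, with a median length of 62.9 kb against 24.2 kb over all genes.

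Start sites stayed outside LADs throughout. The RefSeq promoter table held 8 of the 9 genes, all but PAX1, with 19 start sites between them. Of these 19 sites, 9 of them in PAX6 alone, 0 lay in naive and 0 in primed LADs. All 19 lie within the gene bodies, and only PAX3 and PAX6 in naive cells had any base of the body in LADs. The zeros of the other members and of primed cells thus follow from the covered shares. Over the 15812 protein-coding genes with an entry, the outermost start site lay in LADs for 17.8% in naive and 17.4% in primed cells, so a start site outside LADs was the common case. The size of the LAD-free interval was less common. For 3 of the 8, PAX3, PAX6 and PAX9, the naive interval was 50 kb, where 4.85% of all genes with an entry had a start site outside LADs in an interval of at most 50 kb. In primed cells this held for 0 of 8, against 2.58% of all genes. The limit of 50 kb was set after the values were seen.

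The promoters of these 3 genes are shown because their start sites lie 21.0 to 22.4 kb from naive LADs on the nearer side, and the promoter of PAX7 is shown as that of the member farthest from LADs. Each is the 250 bases before the outermost start site, read 5' to 3' on the strand of the gene from the RefSeq table of GRCh38.p14, with the Dam target GATC in capitals. GATC reads the same on both strands.
PAX3 promoter, chr2:222298999-222299248, minus strand: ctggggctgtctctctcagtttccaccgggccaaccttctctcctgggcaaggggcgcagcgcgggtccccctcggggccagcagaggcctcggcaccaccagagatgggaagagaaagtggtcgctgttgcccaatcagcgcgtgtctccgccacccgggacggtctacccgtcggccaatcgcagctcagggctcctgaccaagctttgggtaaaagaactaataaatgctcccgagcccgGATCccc
PAX6 promoter, chr11:31817962-31818211, minus strand: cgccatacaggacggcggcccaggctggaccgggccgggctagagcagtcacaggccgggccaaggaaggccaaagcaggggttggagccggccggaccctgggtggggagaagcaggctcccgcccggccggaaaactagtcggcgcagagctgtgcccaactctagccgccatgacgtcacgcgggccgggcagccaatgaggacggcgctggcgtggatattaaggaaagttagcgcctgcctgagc
PAX9 promoter, chr14:36657318-36657567, plus strand: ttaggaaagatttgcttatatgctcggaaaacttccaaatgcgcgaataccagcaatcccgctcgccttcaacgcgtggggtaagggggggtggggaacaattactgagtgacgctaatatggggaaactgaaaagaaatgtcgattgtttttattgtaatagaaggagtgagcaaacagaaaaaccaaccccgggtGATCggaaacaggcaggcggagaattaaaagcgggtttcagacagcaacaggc
PAX7 promoter, chr1:18630596-18630845, plus strand: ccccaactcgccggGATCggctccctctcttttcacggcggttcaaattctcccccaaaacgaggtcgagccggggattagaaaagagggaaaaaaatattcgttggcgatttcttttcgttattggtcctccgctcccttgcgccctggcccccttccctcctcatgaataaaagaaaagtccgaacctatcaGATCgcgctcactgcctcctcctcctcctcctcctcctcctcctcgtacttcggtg
The PAX3 promoter held 1 GATC site, beginning 7 bases before the start, the PAX9 promoter 1, beginning 53 bases before it, the PAX7 promoter 2 and the PAX6 promoter 0. Of the outermost promoters of the 8 genes 5 held at least 1 GATC, where 35.8% of the 35116 RefSeq promoters of this length did. The 35116 include inner promoters of genes with several start sites, here and for the medians below, so unlike sets are compared. CG dinucleotides numbered 17 in the PAX3, 22 in the PAX6, 13 in the PAX9 and 18 in the PAX7 promoter, against a median of 11 over all promoters. GC content was 64% for PAX3, 68.4% for PAX6, 46.8% for PAX9 and 54.8% for PAX7, against a median of 58%. These counts describe the sequence shown. LADs are called over 10 kb, and the GATC content of whole windows was not measured here.

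Genes that work with the PAX factors were placed in the same way for comparison. SIX2 to SIX6, EYA1 to EYA4, DACH1 and DACH2 encode partners of PAX proteins in a network first known from eye formation. Of these 11, the same 4 were in LADs of naive and of primed cells, against 3079 of 19974 protein-coding genes in both. They were DACH2 (100% and 100%), DACH1 (95.3% and 100%), EYA1 (85.7% and 94.8%) and EYA4 (100% and 100%), the last named after its values were seen. The 1 Mb share was higher in naive cells for 0 and higher in primed cells for 4 of the 11 (27.8% and 17.8% of all genes). SIX6 and SIX4, from 1 locus on chromosome 14, had shares of 34.9% and 23.3% in naive and 77.9% and 64.3% in primed cells, the reverse order to PAX3 and PAX6. Both were named after their values were seen.

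Of 16 target and partner genes of individual PAX factors, 6 fell in LADs of naive cells and 7 in LADs of primed cells, against 18.9% and 17.3% of all genes. The longest of those in both were MITF, a PAX3 target in pigment cells, MET, a PAX3 target in migrating muscle precursors, and GDNF, which PAX2 controls in the kidney, each covered at 100% in both states, and all were named after their values were seen. BMP4, a signal gene linked to PAX9 in the tooth, was 3.70% covered in naive cells and 100% covered in primed cells. Its body, 7.16 kb, is shorter than 1 window of 10 kb, and its 1 Mb was in LADs at 80.7% and 85.7%. Of 32 homeobox genes of the same PRD class that lack a paired domain, the same 2 were in LADs of both states (3079 of all 19974 genes). These were PRRX1 (100% and 100%) and ALX1 (53.6% and 100%). In that list the 1 Mb share was higher in naive cells for 5 and higher in primed cells for 5 (27.8% and 17.8% of all genes). In neither state did 20 of the 32 have a LAD base in the 1 Mb (49.7% of all genes). The median distances were 974 kb and 1089 kb, against 55.7 kb and 269.9 kb for the PAX genes, in naive and primed cells. Without LADs under 50 kb they were 2066 and 2480 kb, against 401.5 and 511 kb. Distances run from the gene body, and the PAX genes were longer, with a median length of 62.9 kb against 10.7 kb.

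**Figure D5:**
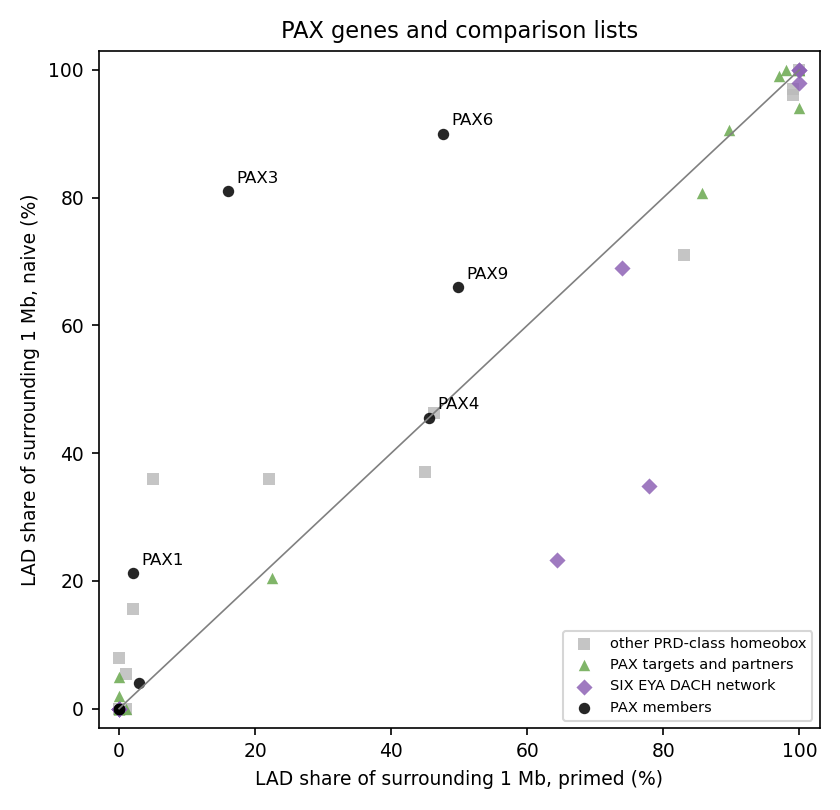
LAD share of the surrounding 1 Mb in primed (horizontal axis, percent) and naive cells (vertical axis, percent) for the PAX genes (black circles) and the comparison lists, 1 point per gene, with the line of equal shares. PAX3 and PAX6 stand farthest above the line, and SIX6 and SIX4 are the diamonds farthest below it.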

How the data were processed

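The files hold base positions of LAD intervals, 1 list per state, as the authors deposited them. Per the submitters' processing notes, BWA, SAMtools 1.10, SICER and the build hg38 were used. Parameters, and how antibody and control libraries entered a list, are not stated there. All interval ends are multiples of 10 kb, depth is unknown, and separate cultures are not named in the labels.

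Gene bodies and start sites came from RefSeq tables of GRCh38.p14. Strand was known for 15812 of 19974 protein-coding genes, those with a promoter entry. A gene was placed in a LAD at 50% coverage or more. Distances are the bases between gene body and LAD, and the 1 Mb window is 500 kb on each side of the midpoint. Exon positions were not used here.

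The PAX genes and the comparison lists were chosen with earlier results of these data known. The nearest coding gene on each side is named for PAX1, PAX3, PAX4, PAX6 and PAX9 and not for the other members. Genes named besides are the 9 members and the coding genes of each 1 Mb whose placement differs. In each list they are the members placed in LADs of 1 state only or else the 3 longest in both. The 3 genes most like a member whose covered share differs by at least 10 points are named too. Others are marked, and 1 gene of the comparison lists is not reported here. Alternatives joined or filtered LADs, or changed the coverage limit, the reference point or the window. The functions were tested on simulated data. Analyses ran in Python 3.11.15 with pandas 2.3.3 and numpy 2.4.6, with SciPy 1.17.1 for intervals and matplotlib 3.10.9 for plots.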

Additional observations from a re-analysis of the deposited data

How the results depend on the processing

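The number of PAX genes in naive LADs was 3 (PAX3, PAX6 and PAX9) with LADs less than 100 kb apart joined, since this closes their 50 kb intervals, 2 with any overlap required, 0 with at least 90% coverage and 0 by the 10 kb window of the start site. It was 1, PAX3, under the other 4 settings, and the number in primed LADs was 0 under all 8. The number with the higher 1 Mb share in naive cells was 3 without LADs under 100 kb and 4 or 5 under the other 7 settings. The number with the higher share in primed cells was 1, PAX8, with LADs less than 100 kb apart joined and in the 2 Mb window (-2.75 and -4 points), and otherwise 0. Over all settings the naive minus primed difference ran from 51 to 81.9 points for PAX3, from 27.5 to 48.3 for PAX6, from 0.85 to 33 for PAX9 and from 0 to 46.2 for PAX1, whose naive LADs are all shorter than 100 kb. Settings based on the start site leave out PAX1. Depth is unknown, and the lists carry no replicate error. No paired analysis was possible because there is 1 list per state and no test was made.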
